A study of Mus musculus with 16 samples.

Results

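The genes described here are 10 amino acid transporters, or subunits of transporters, that belong to the cellular response to amino acid shortage: Slc7a11, Slc7a5, Slc3a2, Slc7a1, Slc7a2, Slc1a4, Slc1a5, Slc38a2, Slc38a4 and Slc6a9. They were picked by symbol, and all 10 were found among the 22322 genes of the deposited tables. The mice had diet-induced obesity and received intraperitoneal injections every 2 days for 8 weeks. One arm, labelled H100, got halofuginone at 100 μg/kg, and the other, labelled HFD, got vehicle. Liver was sequenced in 5 libraries per arm and white adipose tissue in 3 per arm, and the labels give neither the strain, sex and age of the mice nor the fat depot. Nothing in the labels says which libraries come from separate animals, so a p-value here measures the spread between these libraries.

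Halofuginone blocks the prolyl-tRNA synthetase, so that uncharged tRNA builds up as it does when an amino acid runs short. Uncharged tRNA activates the kinase GCN2, which phosphorylates the initiation factor eIF2 and so favours translation of the transcription factor ATF4. ATF4 pairs with C/EBP proteins on composite DNA elements of its target genes, which include enzymes of amino acid synthesis, tRNA synthetases and plasma membrane transporters. Slc3a2 encodes the CD98 heavy chain, which carries several light chains to the cell surface. Slc7a5 encodes the light chain LAT1 for leucine and other large neutral amino acids, and Slc7a11 encodes xCT, the light chain that takes up cystine in exchange for glutamate. Slc7a1 (CAT1) and Slc7a2 (CAT2) carry arginine and lysine, Slc1a4 (ASCT1) and Slc1a5 (ASCT2) exchange small neutral amino acids and glutamine, Slc38a2 (SNAT2) and Slc38a4 (SNAT4) take up neutral amino acids with sodium, and Slc6a9 (GLYT1) takes up glycine.

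Promoters are shown because ATF4 and the oxidative stress factor NRF2 have known binding letters. RefSeq start-site windows (build GRCm38.p6, 250 bases before to 50 after each start) were at hand for 7 of the 10 genes, in 12 windows, with no entry for Slc7a5, Slc7a2 and Slc1a5. Of the members called in treated liver below, only Slc7a1 and Slc3a2 therefore had a window. The letters TGATGNAA, the core of the composite ATF4 element, were searched on both strands and were present in 3.97% of all 32851 windows. Of the members, Slc7a11 and Slc1a4 held them. TGACNNNGC, the core of the NRF2 element, was present in 12.4% of all windows. Of the members, Slc6a9, Slc7a1 and Slc38a2 held it in some or all of their windows. Slc6a9 and Slc7a1 also had a window without it, and a gene with several windows has more places for a match. No match of one overlapped a match of the other in these windows. The 250 bases before the start of Slc7a11 (chr3:50443614-50443863, minus strand) held TGATGNAA on both strands, at bases 66 to 59 and 47 to 40 before the start. The bases before the upstream start of Slc7a1 (chr5:148399905-148400154, minus strand) held TGACNNNGC once, at bases 11 to 3, and those of Slc3a2 (chr19:8713898-8714147, minus strand) held neither. The bases right after this Slc3a2 start were not found in the annotated transcripts of the gene, unlike those of Slc7a11, Slc7a1 and Slc1a4. Its window may therefore miss the start in use, and the absence of matches covers this window only. In Slc1a4 the match crossed the start, with 4 bases on each side, and 28 bases around it are shown (chr11:20332700-20332727, minus strand). Capitals mark the matches, on the strand of the gene. A match describes letters only.
Slc7a11: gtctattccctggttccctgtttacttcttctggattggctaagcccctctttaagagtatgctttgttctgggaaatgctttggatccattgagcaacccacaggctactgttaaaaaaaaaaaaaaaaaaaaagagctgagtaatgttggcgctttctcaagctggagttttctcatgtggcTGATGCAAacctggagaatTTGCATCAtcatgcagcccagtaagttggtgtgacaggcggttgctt
Slc7a1: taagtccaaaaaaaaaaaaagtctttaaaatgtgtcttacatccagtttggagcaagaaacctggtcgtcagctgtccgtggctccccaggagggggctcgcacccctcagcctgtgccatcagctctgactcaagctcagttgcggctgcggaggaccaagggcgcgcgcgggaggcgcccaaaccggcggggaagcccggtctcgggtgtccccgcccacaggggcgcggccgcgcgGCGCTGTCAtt
Slc3a2: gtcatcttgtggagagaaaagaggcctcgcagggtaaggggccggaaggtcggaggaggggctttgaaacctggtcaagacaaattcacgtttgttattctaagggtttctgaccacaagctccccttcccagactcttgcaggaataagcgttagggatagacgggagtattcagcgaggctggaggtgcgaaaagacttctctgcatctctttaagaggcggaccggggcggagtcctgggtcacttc
Slc1a4 site: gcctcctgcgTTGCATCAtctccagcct

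The tissues matched their labels: 8 hepatocyte markers summed to 128665 to 144490 CPM in vehicle liver, and 8 adipocyte markers to 13466 to 26146 CPM in vehicle fat. Adipoq, Plin1 and Lep stayed at or under 3 counts in every liver library and Fgb in every fat library. Library totals ran from 17070614 to 31980683 counts. Several libraries stood apart. Halofuginone liver 1 was the lowest of its group in 83.8% of the 1558 genes called higher in liver, so the liver fold changes of the members and the list counts are also given without it. In fat, vehicle replicate 3 had the highest macrophage marker sum (9807 CPM, against 4290 and 5229 CPM in the other vehicle libraries) and the lowest adipocyte marker sum. Its epididymis marker sum was 78.0 CPM, against 1.08 and 1.72 CPM in the other vehicle libraries and at most 14.4 CPM in treated fat. Of these 7 markers, 3 stayed at or under 3 counts in every vehicle fat library. Its lymphocyte (325 CPM), Kupffer cell (62.2 CPM) and fibroblast sums (5471 CPM) were the highest in fat. Its endothelium (550 CPM) and hepatocyte sums (157 CPM) were the lowest.

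The 2 tissues held different members at high level in the vehicle state. Levels of different genes are compared as FPKM, the authors' values scaled for gene length and depth. In vehicle liver Slc38a4 was the most abundant member at 289 ± 42.9 FPKM (SD, n = 5), followed by Slc7a2 at 40.3 ± 9.70 FPKM. Slc38a2 (23.2 ± 5.31 FPKM) and Slc3a2 (20.2 ± 1.85 FPKM) overlapped in range, and Slc6a9 came next at 7.22 ± 1.503 FPKM. The lowest 5 members were Slc1a4 (1.15 FPKM), Slc7a5 (0.482 FPKM), Slc1a5 (0.320 FPKM), Slc7a1 (0.168 FPKM) and Slc7a11 (0.030 FPKM), of which Slc1a4 overlapped Slc7a5 and Slc1a5 overlapped Slc7a1. In vehicle fat the order was led by Slc1a5 at 316 ± 177 FPKM (SD, n = 3) and Slc3a2 at 116 ± 10.3 FPKM, which did not overlap. Slc38a2 followed at 19.0 ± 3.45 FPKM. From Slc7a1 (3.37 FPKM) down through Slc7a5, Slc1a4, Slc6a9, Slc7a2 and Slc7a11 to Slc38a4 (0.587 FPKM), each fat member overlapped the next one.

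Paralogs took opposite places in the tissues. Slc7a1 made up 0.437 ± 0.244% of the summed FPKM of Slc7a1 and Slc7a2 in vehicle liver and 72.0 ± 5.87% in vehicle fat. Slc38a2 was 7.64 ± 2.43% of the sum with Slc38a4 in vehicle liver and 97.0 ± 1.57% in vehicle fat. For Slc1a4 against Slc1a5 the share was 76.3 ± 8.05% in vehicle liver and 0.935 ± 0.271% in vehicle fat. The 2 tissues came in separate tables, so tissue and any processing batch cannot be told apart in these levels.

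In treated liver 5 of the 10 transporters rose and none fell: Slc7a1, Slc7a5, Slc1a5, Slc3a2 and Slc7a2, by 2.65, 2.17, 1.39, 1.06 and 0.76 on the log2 scale. Slc7a11 did not pass the count filter, and Slc1a4, Slc38a2, Slc38a4 and Slc6a9 were not called. Calls came from the quasi-likelihood test of edgeR, with Benjamini-Hochberg adjusted p under 0.05 over 12311 genes, which called 23.2% of all genes and 12.7% as higher. Without adjustment 6 of 9 members had a p under 0.05, beside 39.1% of all genes, and 8 of 9 had a positive log2 fold change, beside 51.7%. The median log2 fold change was 0.76 over the 9 members tested and 0.017 over all genes. Without halofuginone liver 1 the count of members called was again 5, at a background of 42.8% of genes. Scaling by library size alone moved the median of all genes to 0.17 and the share of calls that were higher from 54.7 to 76.9%, and the same count of 5 members was called. Values below are CPM, counts scaled to the TMM-adjusted library size.

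Slc3a2, the shared heavy chain, varied little between vehicle livers. Its vehicle values were 37.9, 37.6, 40.7, 42.8 and 39.5 CPM in replicates 1 to 5. Under halofuginone they were 38.7, 87.3, 87.8, 104 and 95.6 CPM. Replicate 1 lay within the vehicle range and the other 4 above it. The rise was 2.08-fold between means (log2 fold change 1.06, SE 0.21, edgeR adjusted p 0.00945), and 1.22 (SE 0.079, adjusted p 2.74e-06) without halofuginone liver 1.

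Slc7a5, the leucine transporter light chain, was low in vehicle liver, at 1.94, 1.70, 1.77, 1.90 and 1.61 CPM. Treated livers held 3.03, 22.0, 4.26, 4.32 and 6.63 CPM. All 5, replicate 1 included, lay above every vehicle library, a separation upward that 5.13% of all genes showed, and replicate 2 stood far above the rest. The log2 fold change was 2.17 (SE 0.50, edgeR adjusted p 0.0153), and 1.34 (adjusted p 0.00784) without halofuginone liver 2. It was 2.35 (adjusted p 0.00245) without halofuginone liver 1.

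Slc7a11, the cystine transporter, was not detectable beyond a few counts in liver. It had 2, 5, 6, 5 and 3 counts in the vehicle libraries and 10, 5, 3, 0 and 2 counts in the treated ones. The single library without a count could still hold up to 3, and 3 counts equal 0.0983 to 0.150 CPM across the livers. The highest value was in halofuginone liver 1 (0.497 CPM). This library had the highest macrophage marker sum of its group (463 CPM, against 251 to 303 CPM in the other treated livers). Its hepatocyte (119927 CPM), Kupffer cell (534 CPM), lymphocyte (27.8 CPM), endothelium (175 CPM), fibroblast (215 CPM) and erythrocyte (138 CPM) sums were also the highest of its group. Its adipocyte, mesothelium and epididymis sums were not. The relation of the Slc7a11 value to cell content was not tested. No fold is given at this level.

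The light chains that pair with the CD98 heavy chain are described here by their shares. Of the summed FPKM of Slc7a5, Slc7a6, Slc7a7, Slc7a8, Slc7a10 and Slc7a11, Slc7a5 made up 9.46 to 11.6% in the vehicle livers and 13.4 to 41.8% in the treated ones, with no overlap. Slc7a8, a light chain for neutral amino acids, went from 33.7 to 51.8% to 14.7 to 42.7%, and Slc7a7, which exports cationic amino acids, stayed the largest or near the largest part (42.9 ± 5.46% and 45.6 ± 3.91%). Slc7a10 was listed at 0 in all liver libraries. Heavy chain per summed light chain in FPKM was 4.39 ± 0.436 in vehicle and 6.55 ± 3.06 in treated liver (SD, n = 5 each), and the ranges overlapped.

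The arginine transporters Slc7a1 and Slc7a2 both rose in liver, from very different levels. Slc7a1 was at 0.911, 1.20, 2.28, 0.784 and 0.819 CPM in vehicle. With the drug it was at 1.09, 8.09, 8.30, 6.52 and 12.9 CPM. Replicates 2 to 5 were above every vehicle liver and replicate 1 was inside their range. This was the largest rise among the members in liver, 6.15-fold between means (log2 fold change 2.65, SE 0.53, edgeR adjusted p 0.00923), and 2.90 (adjusted p 7.12e-05) without halofuginone liver 1.

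Slc7a2, by contrast, is an abundant liver gene, at 432, 316, 261, 230 and 262 CPM in vehicle. The treated values were 438, 281, 507, 683 and 628 CPM, of which 4 exceeded the vehicle maximum and replicate 2 did not. The rise of 0.76 on the log2 scale (SE 0.24, adjusted p 0.0453 by edgeR) stood close to the threshold. Omitting any of vehicle livers 2 to 5, or any of treated livers 3 to 5, ended the call, and the adjusted p then lay between 0.0866 and 0.114. So did dropping the count filter (edgeR adjusted p 0.0504) or adding the replicate number as a block (adjusted p 0.108). The rise was 0.78 (adjusted p 0.0319) without halofuginone liver 1. The hepatocyte marker sum was 52366 to 119927 CPM in treated liver, below every vehicle liver. Means were lower for 6 of the 8 markers and higher for 2, and 2 were called lower, beside 10.5% of all genes. The part of this sum in the liver results was not tested. In bulk tissue, fewer cells of a type and less RNA per cell cannot be told apart.

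Slc1a5, the glutamine exchanger, was low in vehicle liver and rose. It held 0.871, 1.05, 0.839, 1.08 and 0.819 CPM in vehicle, which were 18 to 29 counts. Treated livers were at 1.14, 3.06, 3.15, 1.97 and 2.83 CPM, all above the vehicle range, with replicate 1 lowest and only just outside it. The log2 fold change was 1.39 (SE 0.27, edgeR adjusted p 0.00866), and 1.54 (adjusted p 0.000152) without halofuginone liver 1. Halofuginone liver 1 was the lowest of its group in 4 of the 5 members called, all but Slc7a2.

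Its paralog Slc1a4 did not share that direction in liver. Vehicle values were 5.31, 4.11, 7.74, 4.52 and 2.2 CPM, and treated values 2.19, 4.36, 2.54, 3.13 and 2.31 CPM. The groups overlapped, and the log2 fold change was −0.71 (SE 0.30, edgeR adjusted p 0.109). Without vehicle liver 5 it was −0.90 and passed the threshold (adjusted p 0.0428). Leaving out halofuginone liver 1 instead gave −0.65 (adjusted p 0.129). The share of Slc1a4 in the summed FPKM of both paralogs was 76.3 ± 8.05% in vehicle and 46.8 ± 9.75% in treated liver, and the ranges did not overlap.

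The 3 sodium-coupled carriers with high or middle liver levels did not separate by arm. Slc38a4, the most abundant member, ran from 612 to 932 CPM in vehicle (median 715 CPM) and from 420 to 935 CPM under the drug, a log2 difference of 0.050 (SE 0.22, adjusted p 0.883 by edgeR). Slc38a2, a transporter known for its induction by amino acid starvation, ran from 79.8 to 155 CPM and from 103 to 155 CPM (0.15, SE 0.18, adjusted p 0.550). For Slc6a9 the ranges were 20.1 to 31.5 CPM and 18 to 29.8 CPM (0.058, SE 0.17, adjusted p 0.823). These log2 fold changes lay within 1 SE of 0, and leaving out single libraries turned the sign of those of Slc38a4 and Slc6a9. Without halofuginone liver 1 they were −0.050 for Slc38a4, 0.14 for Slc38a2 and 0.037 for Slc6a9 (adjusted p 0.875, 0.579 and 0.884).

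**Figure D1:**
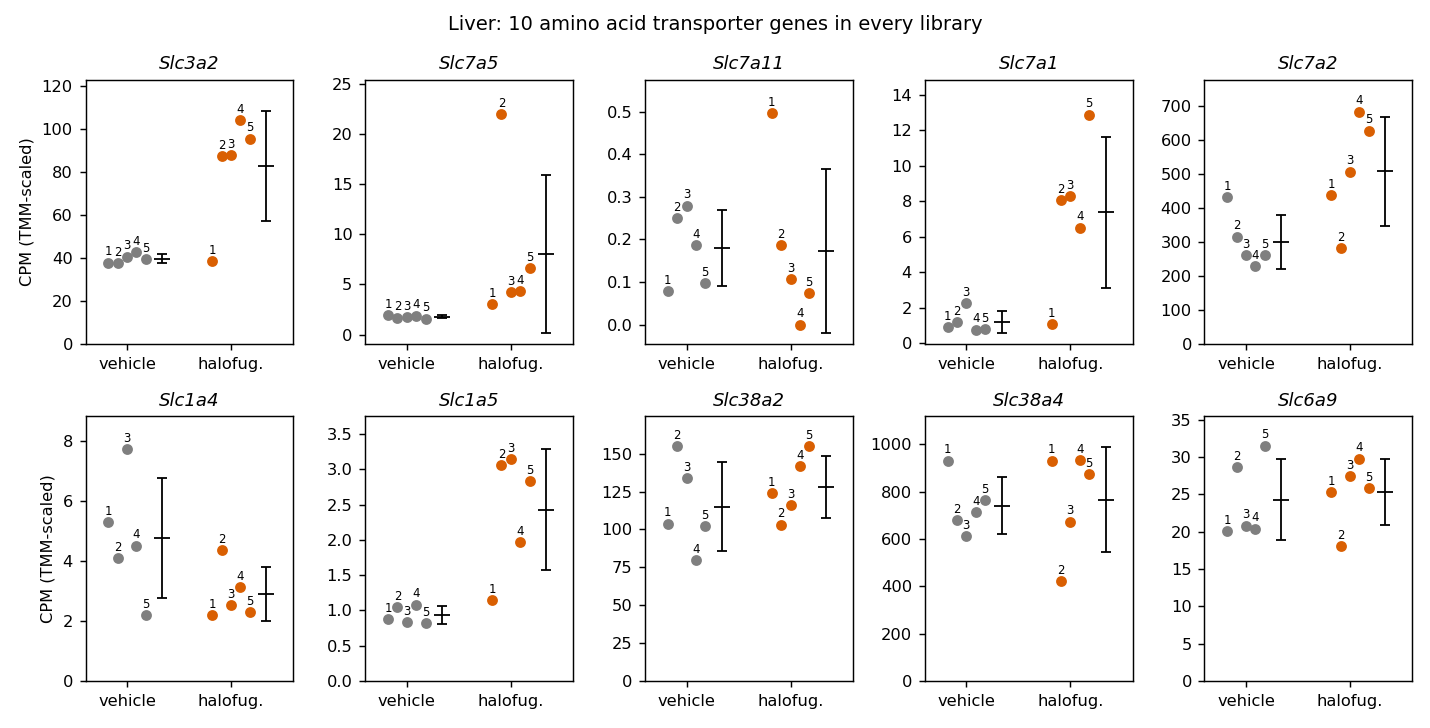
CPM (vertical axis, linear, one scale per gene) of the 10 transporters in each liver library, vehicle in grey and halofuginone in orange, numbered by replicate, with the mean ± SD at the right of each group (n = 5). Halofuginone replicate 1 sits with the vehicle libraries for Slc3a2 (38.7 CPM) and Slc7a1 (1.09 CPM), and replicate 2 is alone at 22.0 CPM for Slc7a5.

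In white adipose tissue none of the 10 members was called, as none was among all 14030 genes tested (0% called), yet Slc7a1 and Slc7a5 were higher in every treated library than in any vehicle library. An unadjusted edgeR p under 0.05 was found for 5 members, Slc7a1, Slc7a5, Slc38a2 and Slc1a4 with positive and Slc7a2 with negative fold changes, against 13.4% of all genes (1881), 5.5% with positive and 7.91% with negative fold changes. DESeq2 called Slc7a1 and Slc7a5 among 655 genes, or 4.39% of those it tested. The median log2 fold change was 0.70 over the 10 members and 0.012 over all genes. The groups did not overlap in 3 members, 2 higher and 1 lower, and in 20.6% of all genes, 10.2% higher and 10.4% lower. A positive log2 fold change was found for 6 of the 10, beside 51.2% of all genes.

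Slc7a1 gave the clearest separation in fat. Vehicle values were 22.7, 27.1 and 23.3 CPM, and treated values 113, 86.0 and 40.0 CPM. Its means differed 3.27-fold (log2 fold change 1.71, SE 0.37, edgeR adjusted p 0.164). Slc7a5 was at 7.97, 12.2 and 9.41 CPM in vehicle and at 54.5, 27.5 and 17.1 CPM under the drug. The lowest treated library was again above the highest vehicle library (log2 fold change 1.74, SE 0.43, adjusted p 0.204). Marker sums of other cell types separated the arms of fat as well. Those of 6 fibroblast markers were 4102 to 5471 CPM in vehicle and 2735 to 3339 CPM in treated fat, with lower means for 5 of the 6. Those of 7 macrophage markers were 4290 to 9807 CPM and 2934 to 3259 CPM, with lower means for all 7. The sums of 5 Kupffer cell markers (13.4 to 62.2 CPM and 1.86 to 4.53 CPM) separated too, with lower means for all 5. So did those of 6 skeletal muscle markers (89.8 to 173 CPM and 51.6 to 60.6 CPM), with lower means for 3 and higher means for 3. Of all these markers only the Kupffer cell marker Clec4f was at or under 3 counts in every library of an arm. The part of these sums in the fat results was not tested.

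Slc3a2, the heavy chain, overlapped between the arms in fat. Its vehicle values of 201, 229 and 215 CPM stood against 519, 326 and 212 CPM, so that 2 of 3 treated libraries exceeded the vehicle range (log2 fold change 0.71, SE 0.32, edgeR adjusted p 0.394). Without halofuginone fat 1 the log2 fold change was 0.33. Heavy chain per summed light chain in FPKM was 1.01 ± 0.360 in vehicle and 2.06 ± 0.723 in treated fat (SD, n = 3 each), with overlapping ranges. Slc7a10, a carrier of small neutral amino acids known as an adipocyte surface protein, made up most of the light chain FPKM in vehicle fat, 56.3 to 69.6%, and 34.9 to 65.8% in treated fat. The share of Slc7a5 was 1.59 to 3.16% in vehicle and 5.09 to 14% in treated fat, without overlap.

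**Figure D2:**
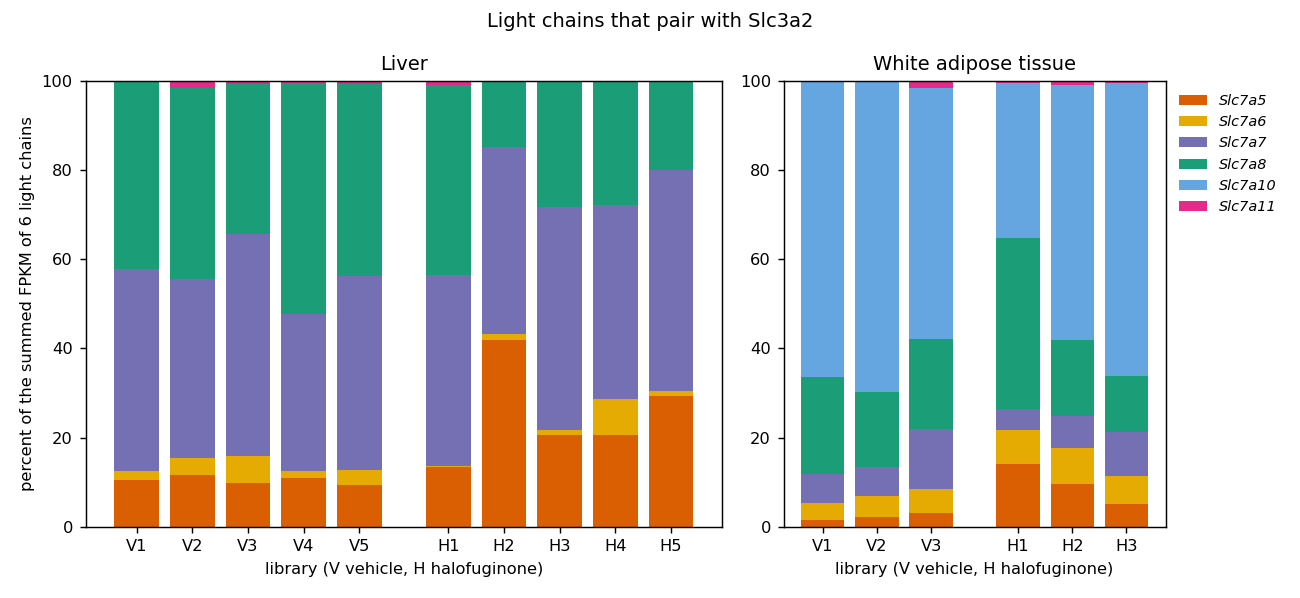
Stacked bars give the percent of the summed FPKM of 6 light chains of the CD98 heavy chain in each library (V vehicle, H halofuginone, numbered by replicate), in liver and white adipose tissue. Slc7a5 (bottom, orange) is between 9.46 and 11.6% in vehicle liver and up to 41.8% in treated liver, Slc7a10 fills the largest part in all fat libraries but halofuginone fat 1, and Slc7a11 is a thin band at the top in both tissues.

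Slc7a11 was low in fat and turned on 1 library. The vehicle values were 2.82, 1.22 and 12.7 CPM, and the treated ones 3.74, 7.06 and 3.26 CPM. Vehicle replicate 3 alone was above all treated libraries, and the other 2 vehicle libraries were below all of them. With it the log2 fold change was −0.25 (SE 0.82, edgeR adjusted p 0.931), and without it 1.22 (SE 0.57, adjusted p 0.443). This library had the highest macrophage marker sum of the 6, with 9807 CPM, and all 7 macrophage markers had lower means in treated fat (sums of 2934 to 3259 CPM). Its epididymis (78.0 CPM) and lymphocyte (325 CPM) marker sums were among others that were also the highest of the 6. The part of macrophage or other cell content in this Slc7a11 value was not tested.

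Slc1a4 and Slc38a2 were higher in 2 of 3 treated fat libraries. Slc1a4 was at 9.65, 15.9 and 6.93 CPM in vehicle and at 56.1, 26.9 and 13.4 CPM with the drug (log2 fold change 1.57, SE 0.55, edgeR adjusted p 0.310), and 0.90 without halofuginone fat 1. Slc38a2 was at 96.5, 69.3 and 107 CPM and at 236, 232 and 98.5 CPM (1.05, SE 0.36, adjusted p 0.301). In both genes only halofuginone fat 3 lay inside the vehicle range.

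Slc1a5, the most abundant member in fat, was spread more widely in vehicle than between the arms. Vehicle libraries held 934, 1324 and 391 CPM and treated ones 901, 828 and 705 CPM, all 3 inside the vehicle range (log2 fold change −0.12, SE 0.41, edgeR adjusted p 0.933). The lowest value was in vehicle replicate 3, which also had the lowest adipocyte marker sum (13466 CPM, against 22364 to 27532 CPM in the other 5), and the part of that in the result was not tested. Slc6a9 overlapped as well, at 4.86 to 12.4 CPM and 9.43 to 17.7 CPM (0.69, SE 0.41, adjusted p 0.517).

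Both members that dominate in liver had negative fold changes in fat, at low levels. Slc7a2 was at 10.6, 6.99 and 10.7 CPM in vehicle and at 5.55, 5.90 and 6.89 CPM under the drug. All 3 treated libraries were below the vehicle range, by a narrow margin to vehicle replicate 2 (log2 fold change −0.63, SE 0.25, edgeR adjusted p 0.350). Slc38a4 had 17 to 63 counts in vehicle and 6 to 28 counts in treated fat, a log2 difference of −1.48 (SE 0.73, adjusted p 0.436). The share of Slc7a1 in the summed FPKM of Slc7a1 and Slc7a2 was 72.0 ± 5.87% in vehicle and 91.6 ± 5.67% in treated fat (SD, n = 3 each), without overlap.

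Among treated fat libraries, replicate 1 was the highest and replicate 3 the lowest in 6 of the 10 members, Slc7a5, Slc3a2, Slc7a1, Slc1a4, Slc1a5 and Slc38a2. The same order of the 3 libraries was found in 13.9% of all genes tested and in 24.9% of the 1432 genes that were higher without overlap.

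**Figure D3:**
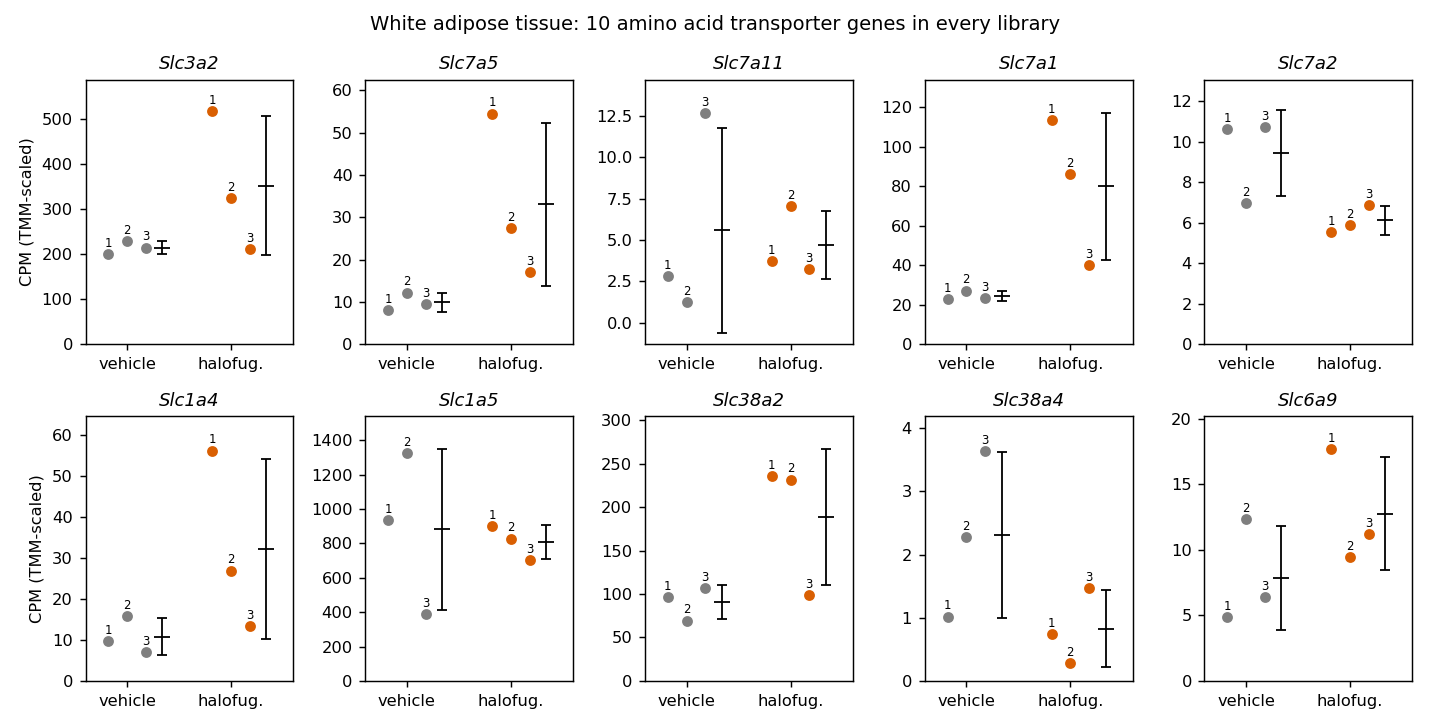
CPM (vertical axis, linear, one scale per gene) of the 10 transporters in each white adipose library, vehicle in grey and halofuginone in orange, numbered by replicate, with the mean ± SD at the right (n = 3). Halofuginone replicate 1 is highest for Slc3a2 (519 CPM), Slc7a5 (54.5 CPM) and Slc7a1 (113 CPM), and vehicle replicate 3 is highest for Slc7a11 (12.7 CPM).

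Whether the drug effect differed between the tissues was tested by subtracting the liver effect from the fat effect in 1 fit of all libraries. None of 9 members was called (Slc7a11 was left out, being at the floor in liver), against 0.949% of 14853 genes. Slc1a4 was nearest to the threshold on the positive side, with a difference of 2.24 (SE 0.62, edgeR adjusted p 0.0946), and Slc7a2 on the negative side, with −1.39 (SE 0.38, adjusted p 0.0907). For Slc1a5 the difference was −1.55 (SE 0.49, adjusted p 0.134), for Slc38a4 −1.54 (SE 0.60, adjusted p 0.220) and for Slc38a2 0.88 (SE 0.37, adjusted p 0.261). These 5 had an unadjusted p under 0.05, which 15.7% of all genes had.

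The calls between tissues depended on single libraries and on the tool. DESeq2 called Slc1a4 (adjusted p 0.0145) and Slc7a2 (adjusted p 0.0210), where it called 4.86% of all genes. Without halofuginone liver 1 edgeR called Slc7a2 (−1.45, adjusted p 0.0378) and Slc1a5 (−1.72, adjusted p 0.0314), at a background of 7.07%. Slc7a2 was also called without halofuginone liver 2 (adjusted p 0.0469), Slc1a5 without vehicle fat 3 (adjusted p 0.0408) and Slc1a4 without halofuginone fat 3 (adjusted p 0.0435). In the other direction, the difference of Slc1a4 was 1.55 (adjusted p 0.256) without halofuginone fat 1. Over all single omissions it ran from 1.55 to 2.65 for Slc1a4, from −1.56 to −1.26 for Slc7a2, from −1.91 to −1.11 for Slc1a5, from 0.67 to 1.18 for Slc38a2 and from −2.275 to −1.09 for Slc38a4, whose extremes came without halofuginone fat 3 and without halofuginone fat 2 or vehicle fat 3. The differences of Slc7a1 (−0.97, SE 0.73), Slc3a2 (−0.37, SE 0.39), Slc7a5 (−0.46, SE 0.75) and Slc6a9 (0.61, SE 0.40) had edgeR adjusted p-values of 0.564, 0.708, 0.835 and 0.501, and the sign for Slc7a5 turned without halofuginone liver 2 (0.37).

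**Figure D4:**
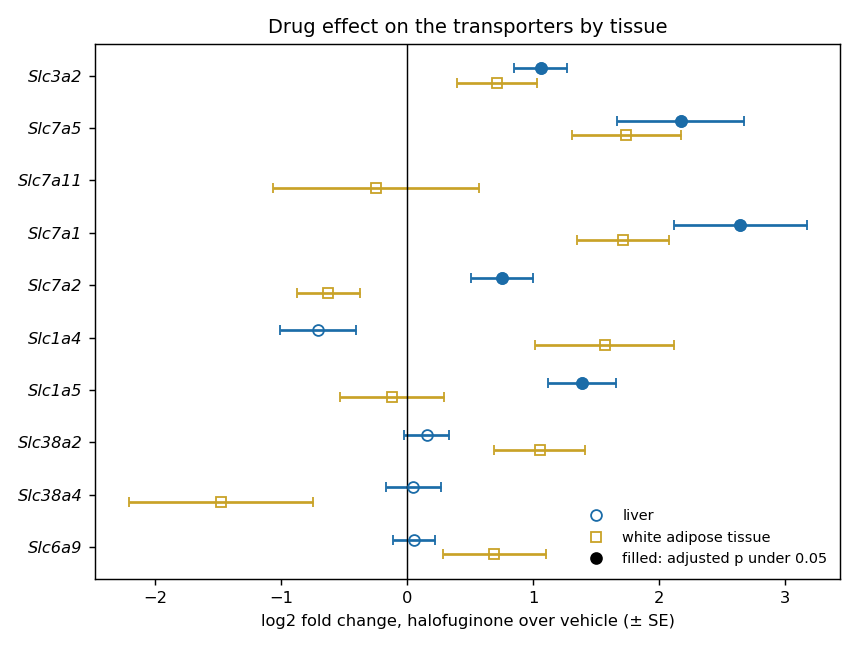
Log2 fold change of halofuginone over vehicle (horizontal axis, with SE bars) of each transporter in liver (circles) and white adipose tissue (squares), filled where the edgeR adjusted p was under 0.05. Slc7a1, Slc7a5 and Slc3a2 lie to the right of 0 in both tissues, Slc7a2 lies at 0.76 in liver and −0.63 in fat, and Slc1a4 at −0.71 and 1.57.

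A list of 44 other amino acid transporters shows how the remaining carriers behaved. In liver 20 passed the filter, and 5 were called, 4 higher and 1 lower, beside 23.2% of all genes, with a median log2 fold change of 0.17. The count moved with single libraries, as did the calls over all genes. It was 0 without vehicle liver 2 or 5, where 1458 and 1700 of all genes were called, against 2850 with all libraries. Without halofuginone liver 1 it was 9 of 21 tested, beside 42.8% of all genes. Leaving out any other single liver library gave 1 or 2, with 1275 to 1921 of all genes called. Slc7a7, a light chain of CD98 that exports cationic amino acids, rose from 3.94 ± 0.516 to 7.13 ± 2.72 CPM (SD, n = 5 each, log2 fold change 0.86, SE 0.22, edgeR adjusted p 0.0210), with no overlap. Slc6a12, which carries betaine and GABA, rose from 47.6 ± 8.72 to 82.1 ± 27.0 CPM (0.79, SE 0.23, adjusted p 0.0327), and Slc38a10 by 0.46 (SE 0.15, adjusted p 0.0451), both with overlapping groups. The glutamate transporter Slc1a2, which in liver marks hepatocytes around the central vein, fell from 221 ± 16.2 to 130 ± 49.4 CPM (−0.77, SE 0.23, adjusted p 0.0347), and every treated liver was below every vehicle liver.

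In fat 29 of the 44 passed and none was called by edgeR. On the higher side 2 had an unadjusted edgeR p under 0.05 and on the lower side 4, beside 5.5% and 7.91% of all genes. DESeq2 called 3, 1 higher and 2 lower, where it called 4.39% of all genes. The median log2 fold change was −0.44 over these 29, against 0.012 over all genes and 0.70 over the 10 members. By value, the glutamate transporter Slc1a3 was at 132 ± 45.4 CPM in vehicle and 356 ± 112 CPM in treated fat (SD, n = 3 each, log2 fold change 1.43, SE 0.35, edgeR adjusted p 0.197). Slc1a1, another glutamate carrier, was at 6.95 ± 3.49 and 16.8 ± 7.85 CPM, and Slc7a6 at 17.9 ± 2.33 and 24.5 ± 4.85 CPM. On the other side, Slc36a2 was at 95.5 ± 29.4 and 41.9 ± 14.3 CPM (−1.19, SE 0.33, adjusted p 0.231), the taurine transporter Slc6a6 at 443 ± 135 and 284 ± 70.5 CPM, and Slc7a7 at 20.02 ± 2.64 and 13.3 ± 3.31 CPM. The groups of these 6 genes did not overlap. In all, 3 of the 29 were higher and 6 lower without overlap, beside 10.2% and 10.4% of all genes.

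**Figure D5:**
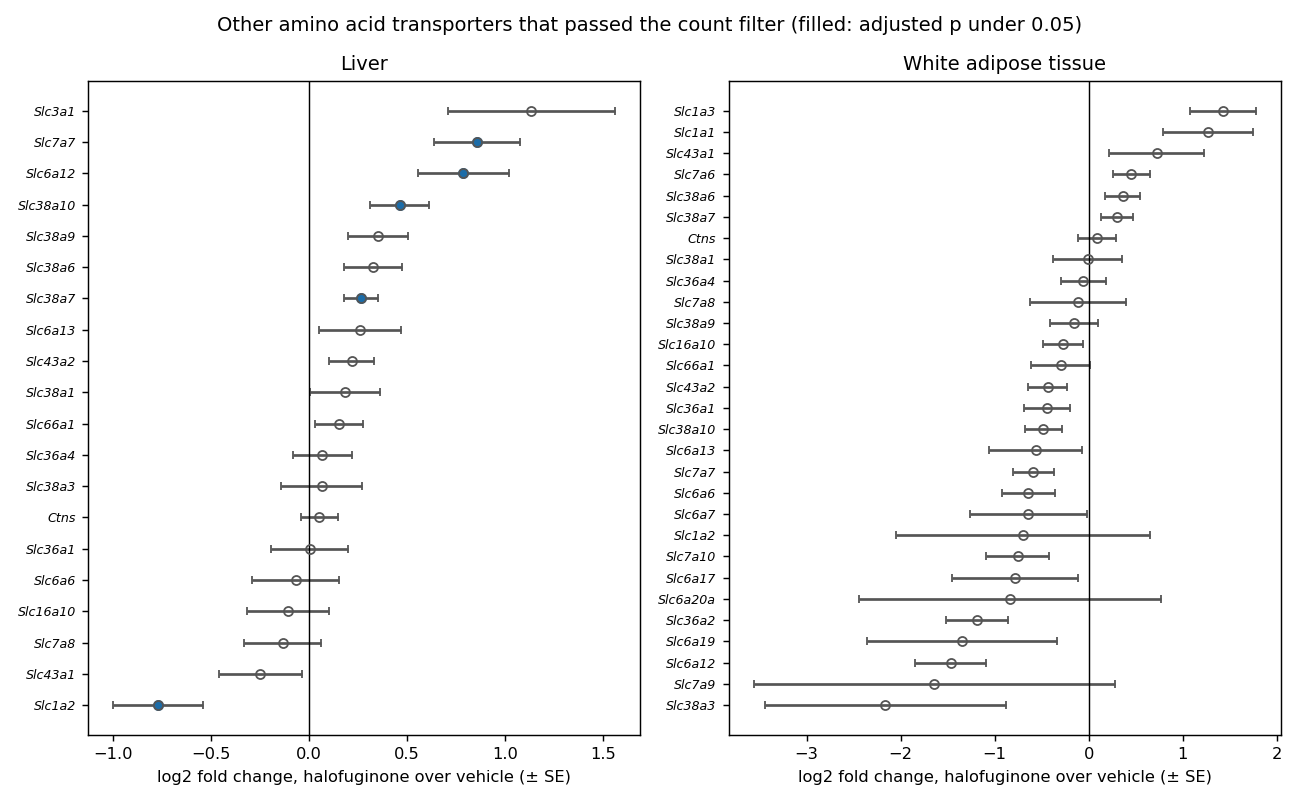
Log2 fold changes of halofuginone over vehicle (horizontal axis, with SE bars) of the other amino acid transporters that passed the count filter, 20 in liver and 29 in white adipose tissue, filled where the edgeR adjusted p was under 0.05. In liver 4 filled points lie above 0 and Slc1a2 at −0.77 below it, and in fat no point is filled and most lie below 0.

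Other genes of the ATF4 response were mostly higher in treated liver. Of 40 listed, 37 were tested there, 21 rose and 2 fell, beside 12.7% and 10.5% of all genes, with a median log2 fold change of 0.78, and the list was written with earlier results of these data known. Its largest rises were in the asparagine synthetase Asns (6.80, SE 0.74, edgeR adjusted p 0.000896), the pseudokinase Trib3 (5.78, SE 0.81, adjusted p 0.00317) and the stress protein Nupr1 (5.50, SE 0.83, adjusted p 0.00374), larger than that of any transporter. Without halofuginone liver 1, 30 of 38 rose and 2 fell, beside 21.2% and 21.6% of all genes. The mitochondrial serine hydroxymethyltransferase Shmt2 (−1.10, SE 0.19) and the transcription factor Cebpb (−0.32, SE 0.10) fell. In fat none of 40 was called, 26 had a positive fold change with an unadjusted p under 0.05 (all genes 5.5%), and 27 were higher without overlap (all genes 10.2%). Trib3 (3.45, SE 0.54), the folate enzyme Mthfd2 (2.58, SE 0.41) and Ddit3, which encodes CHOP (2.36, SE 0.33), had the largest values there.

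Cystine taken up by xCT feeds glutathione synthesis, and NRF2 is the other known activator of Slc7a11. Of 10 NRF2 target genes, all tested in liver, 0 were called higher and 1 lower, near the 10.5% of all genes called lower, with a median log2 fold change of −0.18. That gene was Gclc, the catalytic subunit of glutamate-cysteine ligase, at 236 ± 32.8 CPM in vehicle and 114 ± 77.7 CPM in treated liver (SD, n = 5 each, −1.05, SE 0.33, edgeR adjusted p 0.0418), with overlapping groups. In a list of 10 glutathione genes, 8 were tested in liver and 2 fell, Gclc and the glutathione synthetase Gss (−0.57, SE 0.14, adjusted p 0.0173), beside the 10.5% of all genes called lower. Without halofuginone liver 1, 2 of the 10 NRF2 targets were called higher and 5 lower, and 1 of the 8 glutathione genes higher and 4 lower, beside 21.2% and 21.6% of all genes. In fat the NRF2 list had a median of −0.75, none called. Of its 10 genes, 4 had an unadjusted edgeR p under 0.05 on the lower side and 3 were lower without overlap. The shares of all genes were 7.91% and 10.4%, and 0 of the 10 were higher by either measure. Hmox1 was at 391 ± 347 and 129 ± 29.5 CPM there and Srxn1 at 177 ± 162 and 64.2 ± 2.52 CPM (SD, n = 3 each), and for both the highest vehicle value (792 and 365 CPM) stood far above the vehicle medians of 192 and 86.2 CPM. Me1 was at 375 ± 45.6 and 226 ± 35.3 CPM (−0.73, SE 0.19, edgeR adjusted p 0.210), with vehicle values of 325 to 415 CPM. All 10 glutathione genes were tested in fat and 0 were called, with a median log2 fold change of −0.04 and 5 above 0. On the higher side 1 had an unadjusted edgeR p under 0.05 and 2 did not overlap, beside 5.5% and 10.2% of all genes. Chac1, which breaks down glutathione, was at 7.92 ± 2.48 CPM in vehicle and 19.1 ± 7.50 CPM in treated fat (1.27, SE 0.35, adjusted p 0.231). Ggct was at 6.35 ± 1.27 and 9.07 ± 0.51 CPM (0.51, SE 0.23, adjusted p 0.390). Neither gene overlapped between the arms.

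The genes most like the transporters across libraries were sought by the root mean square difference of their log2 values from the vehicle mean. For Slc1a5, the called member with the largest test statistic in liver, the nearest of 8817 genes over 10 libraries were Abr (0.14), Mcrip1 (0.14) and Kdelc1 (0.15). Their edgeR log2 fold changes were 1.09, 1.00 and 1.16, below the 1.39 of Slc1a5. The genes compared averaged at least 5 CPM, and Slc1a5 was at 0.933 CPM in vehicle and 2.43 CPM in treated liver. The 0.5 CPM added before the log lowers a rise at such levels, so this likeness depends on it. For Slc7a1 in fat the nearest of 10951 genes over 6 libraries was Slc7a5 itself (0.20), followed by Aldh18a1 (0.26), which starts proline synthesis, and Ppp1r15a (0.28), which encodes the eIF2 phosphatase subunit GADD34. In both cases the order of libraries within the groups is part of the measure.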

How the data were processed

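Poly(A)-selected RNA was sequenced from liver and white adipose tissue. The authors deposited 1 table per tissue with counts and FPKM per library, per the file headers. Per the submitters' processing notes, fastp 0.18.0, Bowtie2 2.2.8, HISAT2, StringTie 1.3.1 and RSEM were used with build mm39, in roles not given. Counts are whole numbers, but in 1 to 31 genes per library an FPKM above 0 stands with 0 counts, which leaves rounding of estimates possible. How reads shared by paralogs, overlapping or antisense genes were counted is not given in the sources used here. Symbols were matched for 22267 identifiers, and 0 columns were left unmapped.

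Each tissue was fitted on its own in R 4.3.3 by edgeR 4.0.16 (TMM, filterByExpr, glmQLFit, glmQLFTest, two-sided, adjusted p under 0.05), and the contrast in 1 joint fit taking all libraries as independent. SE is the log2 fold change over the square root of F. The steps were tested on simulated data with independent libraries and the same dispersion for every gene, a simpler setting than these data, and no result here rests on it. No libraries of a group agreed within sampling noise (chi-square per degree of freedom at least 29.7). The bound of 3 for a library with 0 counts covers counting error only. Alternatives were DESeq2 1.42.0, other scalings and filters, robust dispersion, 1 fit of all groups, a replicate block, limma 3.58.1 on log2 FPKM with a pseudocount of 1 or 0.1, and leaving out each library. List counts without halofuginone liver 1 were added after seeing the data.

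The members and lists were chosen with earlier results of these data known. From each list the text names up to 3 called genes per direction, by size of fold change, if a group mean reached 5 CPM, and takes genes without overlap where nothing was called. The likeness measure used log2 of CPM plus 0.5. Marker lists covered hepatocyte, adipocyte, macrophage, Kupffer cell, lymphocyte, endothelium, fibroblast, mesothelium, skeletal muscle, epididymis and erythrocyte.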

Additional observations from a re-analysis of the deposited data

Results flagged for a closer look

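Within each group of 5 livers, the highest or lowest value was listed if more than 0.71 of the whole range separated it from its neighbour. Chance does this in about 1 in 20 groups, and 20 groups were looked at. Slc7a5 in halofuginone liver 2 was at 22.0 CPM, with 6.63 CPM in the next library (gap 0.81 of the range). Slc3a2 in halofuginone liver 1 was at 38.7 CPM, with 87.3 CPM next (gap 0.742). Slc7a1 in vehicle liver 3 was at 2.28 CPM, with 1.20 CPM next (gap 0.721). Their log2 fold changes without these libraries were 1.34, 1.22 and 2.99, each again called.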

How the results depend on the processing

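Of 535 alternative values of single members, 501 kept their direction and their side of the threshold, 9 lost and 10 gained the call, and 15 turned in sign. All 9 lost calls were those of Slc7a2 in liver. Leaving out single libraries gave 1275 to 5312 called genes in liver, 0 to 1 in fat and 34 to 1053 between tissues, and 0 to 2 members between tissues and 0 to 9 other transporters in liver. In the same fits the log2 fold change ran from −0.050 to 0.19 for Slc38a4 and from −0.021 to 0.17 for Slc6a9 in liver, from −0.72 to 1.22 for Slc7a11 and from −0.47 to 0.29 for Slc1a5 in fat, and the tissue difference of Slc7a5 from −1.05 to 0.37. limma on log2 FPKM gave 0.11 for Slc1a5 in fat with either pseudocount, 2 called genes in fat with the pseudocount of 0.1, and 2 members in liver, where fewer members pass its filter of 1 FPKM. Called other transporters in liver were 9 by library size alone, 3 without a filter and 2 in 1 fit of all groups. Of all genes, these settings called 3627, 2624 and 2193 in liver, against 2850 in the main fit. In fat DESeq2 called 655 genes, 2 members and 3 other transporters, 1 fit of all groups 334 genes and 2 other transporters, and no filter 1 gene. Between tissues DESeq2 called 686 genes and 2 members. Replicate numbers did not pair the libraries (same-number correlations from −0.23 to 0.18 in liver and from −0.63 to 0.27 in fat). Between liver and fat libraries of the same number the correlations were 0.22, 0.18 and 0.31 in vehicle and −0.027, 0.10 and −0.17 under halofuginone, so shared animals, which the tissue comparison takes as absent, could not be read from them. With the number as a replicate block 1901 genes, 4 members and 1 other transporter were called in liver, 0 genes in fat and 20 between tissues, and Slc7a11 and Slc1a5 in fat were at 0.31 and 0.039. Where no construction is named, the cause was not tested. Slc7a11 in liver and Slc38a4 in fat are limited by depth.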
